A study of Mus musculus with 10 samples.

Results

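The genes examined were 6 that mark the dI5 and dILB excitatory interneurons of the embryonic dorsal spinal cord, namely Lmx1b, Tlx3, Tlx1, Phox2a, Slc17a6 and Pou4f2. They were found by gene identifier among the 54146 genes of the deposited count table, and all 6 passed the filter on low counts. The question was whether the rise of Lmx1b in embryos labelled Dot1l-cKO was shared by the other genes of these cells, and whether it was seen in each of the 2 litters.

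Polyadenylated RNA of the lumbar spinal cord was sequenced at E12.5 from 5 Dot1l-cKO and 5 control embryos of 2 litters, with the dorsal root ganglia (DRG) left on the tissue. The Dot1l-cKO embryos were Wnt1cre2/+; Dot1lfl/fl in both litters, carrying the transgene of the strain named B6.Cg-E2f1Tg(Wnt1-cre)2Sor/J. The controls carried no Cre and were Dot1lfl/fl in litter 1 (3 against 3 embryos) and Dot1lfl/+ in litter 2 (2 against 2 embryos), so the number of floxed alleles in the controls cannot be told apart from litter. Wnt1-cre is active in the dorsal neural tube and in neural crest, which forms the DRG, so part of each sample was outside its reach. Each library was 1 embryo.

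Total counts ran from 40949585 to 61194291 in controls and from 54870771 to 68928443 in Dot1l-cKO. Levels are CPM, counts scaled to library size, after TMM, a correction for library composition. Counts over the whole Dot1l gene did not fall in Dot1l-cKO (87.6 to 107 CPM in controls, 97.8 to 112 CPM in Dot1l-cKO), so they do not check the genotype. Both Dot1l-cKO embryos of litter 2 had Xist at 6.00 and 6.79 CPM and a summed level of 4 Y-linked genes of 156 and 172 CPM, whereas the other 8 embryos had Xist at 499 to 890 CPM. Within litter 2, genotype therefore cannot be told apart from sex-linked expression.

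Dorsal horn neurons arise from progenitors that express Gsx1 and Gsx2, and these give rise early to the dI4 and dI5 classes and later to the dILA and dILB classes. The excitatory dI5 and dILB cells are specified by the homeodomain factors Tlx1 and Tlx3, which favour a glutamatergic over a GABAergic fate, and by the LIM-homeodomain factor Lmx1b. Their inhibitory dI4 and dILA neighbours express Pax2 and Gbx1. Bulk libraries do not tell a change in the number of these cells from a change in RNA per cell.

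The promoters of Lmx1b, Tlx3, Tlx1 and Phox2a are shown because these were the 4 members with the largest log2 fold changes over both litters, with Pou4f2 and Slc17a6 near 0. Each line is the 250 bases before the RefSeq start (build GRCm38.p6), 5′ to 3′ on the gene's strand, with CCAAT or its reverse complement ATTGG in capitals. The windows were chr2:33641099-33641348 (minus strand) for Lmx1b, chr11:33203589-33203838 (minus strand) for Tlx3, chr19:45150465-45150714 (plus strand) for Tlx1 and chr7:101818063-101818312 (plus strand) for Phox2a.
Lmx1b: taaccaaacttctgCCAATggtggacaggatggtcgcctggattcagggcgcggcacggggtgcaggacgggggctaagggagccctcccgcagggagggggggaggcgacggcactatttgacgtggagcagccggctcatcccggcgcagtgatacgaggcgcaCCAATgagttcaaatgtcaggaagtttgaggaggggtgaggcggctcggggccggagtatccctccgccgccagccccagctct
Tlx3: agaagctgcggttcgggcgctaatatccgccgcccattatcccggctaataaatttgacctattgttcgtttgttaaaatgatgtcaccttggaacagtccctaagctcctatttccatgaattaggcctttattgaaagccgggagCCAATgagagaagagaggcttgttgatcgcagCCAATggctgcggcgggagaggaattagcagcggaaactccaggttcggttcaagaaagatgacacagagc
Tlx1: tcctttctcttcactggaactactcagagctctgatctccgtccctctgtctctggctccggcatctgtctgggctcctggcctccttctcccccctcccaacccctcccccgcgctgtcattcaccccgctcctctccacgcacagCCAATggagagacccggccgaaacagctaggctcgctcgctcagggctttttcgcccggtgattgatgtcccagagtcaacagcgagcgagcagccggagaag
Phox2a: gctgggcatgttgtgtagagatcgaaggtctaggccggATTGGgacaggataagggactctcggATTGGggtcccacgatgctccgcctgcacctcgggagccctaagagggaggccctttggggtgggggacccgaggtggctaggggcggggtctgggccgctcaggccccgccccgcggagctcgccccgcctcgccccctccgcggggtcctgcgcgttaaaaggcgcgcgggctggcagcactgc

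The CCAAT motif occurred 2 times in the Lmx1b, Tlx3 and Phox2a windows, 1 time in that of Tlx1, and not in the window of Pou4f2 or in either window of Slc17a6. Of 32851 promoter windows of this length, 33.8% held it. The homeodomain core TAAT occurred 5 times in the Tlx3 window and 1 and 4 times in those of Slc17a6, and in none of the other members' windows (54.9% of all windows held it). The E-box CANNTG was held by 66.2% of windows, and by those of Lmx1b, Tlx1 and Slc17a6. These matches describe letters in the windows, both strands searched, and were chosen with the fold changes known. The RefSeq start of Lmx1b lies upstream of the gene as annotated in GENCODE (mm10 chr2:33560965-33640511, minus strand).

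Lmx1b, required for the differentiation of dorsal horn excitatory neurons, was measured first. In litter 1 it was at 102, 111 and 97.0 CPM in the 3 controls and at 130, 108 and 118 CPM in the 3 Dot1l-cKO embryos. Its litter 2 levels were 46.2 and 49.2 CPM in controls and 72.9 and 71.7 CPM in Dot1l-cKO. The groups overlapped in litter 1, where 1 Dot1l-cKO embryo lay below the highest control, and did not overlap in litter 2. Over both litters Lmx1b rose by a log2 fold change of 0.36 ± 0.08 (SE, 95% interval 0.19 to 0.52, adjusted p = 0.0318, edgeR quasi-likelihood test with litter as covariate and Benjamini-Hochberg adjustment). It was the only 1 of the 6 members that passed this test, against 2.99% of the 19773 genes tested, or 1.90% counting rises alone. The call was lost with GC-content correction (0.22, adjusted p = 0.103 by the same test) and with the Xist level as covariate (0.17, adjusted p = 0.318). Since Xist was low only in both Dot1l-cKO embryos of litter 2, the fit with Xist takes up most of the genotype contrast of that litter and is no separate check beside litter 1 alone, here and for the genes below. It was also lost in 7 of the 10 fits that left out 1 embryo, namely Dot1l-cKO replicates 1, 4 and 5 and control replicates 1, 3, 4 and 5, in which the adjusted p ran from 0.0528 to 0.0988.

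**Figure D1:**
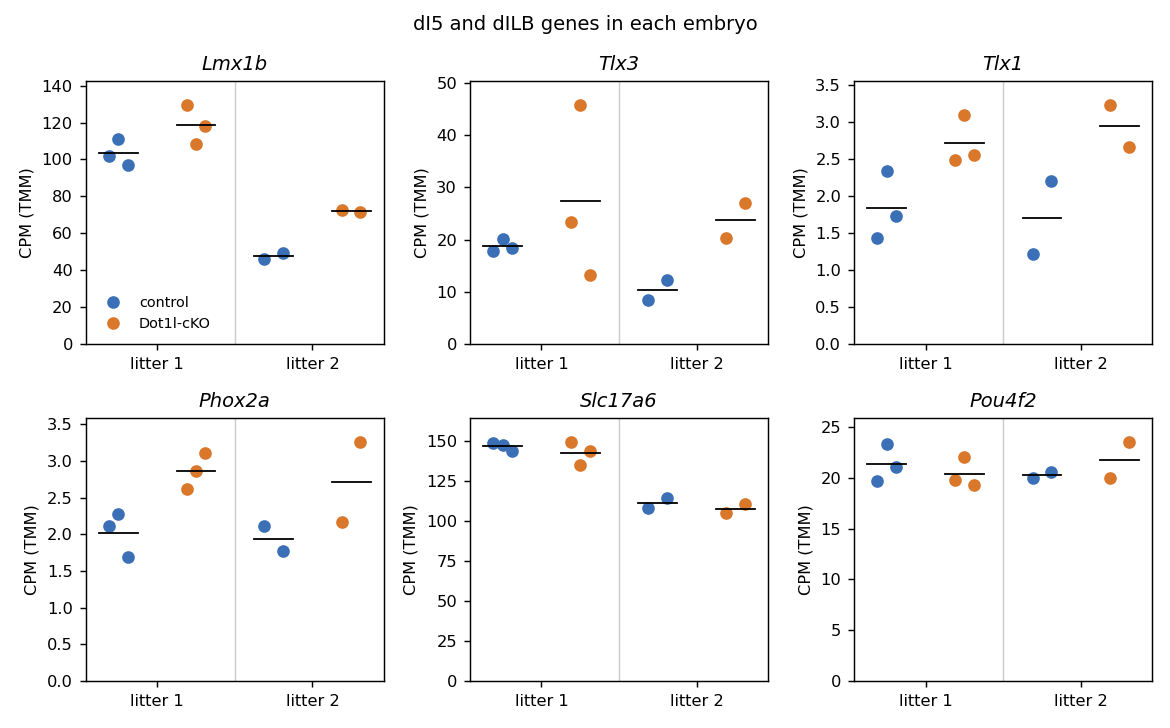
Level of each member in each embryo, in CPM after TMM scaling on linear axes from 0, by litter (x axis) and group (blue, control; orange, Dot1l-cKO), with 1 point per embryo and a line at each mean. Lmx1b was lower in litter 2 in both groups, 1 Dot1l-cKO embryo of litter 1 reached 45.7 CPM of Tlx3, and Slc17a6 and Pou4f2 overlapped between groups in both litters.

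Tlx3, which selects the glutamatergic fate, had the highest fold change of the members over both litters by the reported test, and the widest spread. Tlx1 was higher than Tlx3 after GC correction (0.49 against 0.32), with limma-voom (0.70 against 0.63) and in litter 1 alone (0.57 against 0.55). Controls of litter 1 were at 17.8, 20.2 and 18.4 CPM, and Dot1l-cKO embryos of that litter at 23.3, 45.7 and 13.3 CPM. In litter 2 the controls were at 8.40 and 12.3 CPM and the Dot1l-cKO embryos at 20.3 and 27.1 CPM. The Dot1l-cKO embryos of litter 1 thus lay on both sides of their controls, and those of litter 2 lay above theirs. Over both litters the log2 fold change was 0.80 ± 0.26 (SE, 95% interval 0.25 to 1.35), which missed the threshold (adjusted p = 0.0964, edgeR quasi-likelihood test). Leaving out Dot1l-cKO replicate 3, the embryo at 13.3 CPM, gave 1.02 with adjusted p = 0.0051 by the same test, the only 1 of 10 such fits that passed. Without Dot1l-cKO replicate 2, the embryo at 45.7 CPM, the value was 0.52 (adjusted p = 0.241), and in litter 1 alone it was then -0.04 in place of 0.55.

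Tlx1, the close relative of Tlx3, was scarce. It was at 1.44, 2.34 and 1.73 CPM in controls and 2.48, 3.10 and 2.55 CPM in Dot1l-cKO of litter 1. The litter 2 levels were 1.21 and 2.20 CPM in controls and 3.23 and 2.66 CPM in Dot1l-cKO. All 5 Dot1l-cKO embryos lay above all 5 controls, which held for no other member. The share of all genes with this separation across litters was not counted. Within litters, every Dot1l-cKO embryo lay above every littermate control for 3.80% of all genes tested. The log2 fold change was 0.66 ± 0.18 (SE, 95% interval 0.28 to 1.04, adjusted p = 0.0584, edgeR quasi-likelihood test), so Tlx1 fell short of the call by this test. It passed with DESeq2 (adjusted p = 0.0119), and with edgeR when Dot1l-cKO replicate 3 was left out (adjusted p = 0.0475). Its counts were 61 to 183 per embryo.

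Phox2a, a homeodomain factor of a subset of these cells that become projection neurons, was also scarce, with 70 to 218 counts per embryo. Controls were at 2.11, 2.27 and 1.69 CPM in litter 1 and at 2.11 and 1.77 CPM in litter 2. Dot1l-cKO embryos were at 2.61, 2.86 and 3.11 CPM in litter 1 and at 2.17 and 3.26 CPM in litter 2. Within each litter the Dot1l-cKO embryos lay above the controls, though that at 2.17 CPM lay below 1 control of the other litter. The log2 fold change of 0.50 ± 0.14 (SE, 95% interval 0.19 to 0.81) did not pass (adjusted p = 0.0723, edgeR quasi-likelihood test). It passed with DESeq2 (adjusted p = 0.0302). Of 2035 exonic bases of Phox2a, 95 overlap Inppl1 on the opposite strand, and the library kit does not mark strand.

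Slc17a6 encodes the vesicular glutamate transporter VGLUT2 and is shared by many excitatory neurons, including those of the ventral cord and the DRG. In litter 1 it was at 149, 148 and 144 CPM in controls and at 150, 135 and 144 CPM in Dot1l-cKO. Litter 2 gave 108 and 115 CPM in controls and 105 and 111 CPM in Dot1l-cKO. The groups overlapped in both litters. Its log2 fold change was -0.04 ± 0.04 (SE, 95% interval -0.13 to 0.05, adjusted p = 0.588, edgeR quasi-likelihood test), an interval whose upper end lies below the lower end of that of Lmx1b.

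Pou4f2, a POU-domain factor of dorsal interneurons and sensory neurons, was at 19.7, 23.4 and 21.1 CPM in controls and 19.8, 22.1 and 19.3 CPM in Dot1l-cKO of litter 1. In litter 2 the controls were at 20.0 and 20.6 CPM and the Dot1l-cKO embryos at 20.0 and 23.6 CPM. The groups overlapped in both litters. The interval of its log2 fold change ran from -0.16 to 0.16 (adjusted p = 0.994, edgeR quasi-likelihood test). Every Dot1l-cKO embryo lay above every littermate control in both litters for 2 of the 6 members, Tlx1 and Phox2a, against 3.80% of all genes tested.

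Per exon length, the order of the members in controls was Slc17a6 (102 TPM, a unit that scales counts by exon length and library), Lmx1b (69.3 TPM), Tlx3 (41.9 TPM), Pou4f2 (27.1 TPM), Phox2a (4.06 TPM) and Tlx1 (3.46 TPM). These are means over 5 controls. Within each litter the control ranges of neighbours in this order did not overlap, except for Tlx3 and Pou4f2 in litter 2 and Phox2a and Tlx1 in both litters. Lmx1b was lower in litter 2 than in litter 1 in controls (39.6 TPM ± 0.917, SD, n = 2, against 89.1 TPM ± 5.03, SD, n = 3).

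The litters were then tested apart. In litter 1 alone 0 of 6 members passed, against 0.0623% of all genes (edgeR quasi-likelihood test with Benjamini-Hochberg adjustment). An unadjusted p below 0.05 was found for 3 of 6 members and for 2715 of 19275 genes by this test. DESeq2 likewise called 0 of 6 there. The litter 1 log2 fold changes were 0.20 for Lmx1b, 0.55 for Tlx3, 0.57 for Tlx1, 0.51 for Phox2a, -0.04 for Slc17a6 and -0.06 for Pou4f2. In litter 2 alone Lmx1b (0.61, adjusted p = 6.44e-04) and Tlx3 (1.21, adjusted p = 0.00208) rose by the same test, 2 of 6 members against 5.13% of all genes. There the values were 0.81 for Tlx1, 0.49 for Phox2a, -0.04 for Slc17a6 and 0.11 for Pou4f2, none past the threshold. With 1 embryo of litter 2 left out, the lone embryo of its group being assumed to vary like the others, Tlx1 ranged from 0.43 (without control replicate 4) to 1.299 (without control replicate 5, adjusted p = 0.0142, edgeR quasi-likelihood test). Phox2a then ranged from 0.17 (without Dot1l-cKO replicate 5) to 0.75 (without Dot1l-cKO replicate 4), and Lmx1b and Tlx3 passed in all 4 such fits.

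A difference of the genotype effect between litters was tested directly. For Lmx1b the change in litter 2 exceeded that in litter 1 by 0.40 on the log2 scale (95% interval 0.16 to 0.65, unadjusted p = 0.0037, adjusted p = 0.389, edgeR quasi-likelihood test for the interaction). The corresponding difference was 0.66 for Tlx3 (adjusted p = 0.742) and -0.03 for Phox2a (adjusted p = 0.987) by the same test. No member passed (0 of 6, 1 with an unadjusted p below 0.05, which was Lmx1b, and 0 with DESeq2), against 0.00978% of all genes. Of 20446 genes, 1646 had an unadjusted p below 0.05 by the edgeR test. With 1 embryo left out, the difference ranged from 0.34 to 0.47 for Lmx1b, and for Tlx3 from 0.32 (without Dot1l-cKO replicate 3) to 1.24 (without Dot1l-cKO replicate 2). No member's difference between litters passed the adjustment over all genes in these fits. With no filter on low counts, Lmx1b (adjusted p = 0.0211) and Tlx3 (adjusted p = 0.00342) passed, as did 437 of 35244 genes (edgeR quasi-likelihood test).

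**Figure D2:**
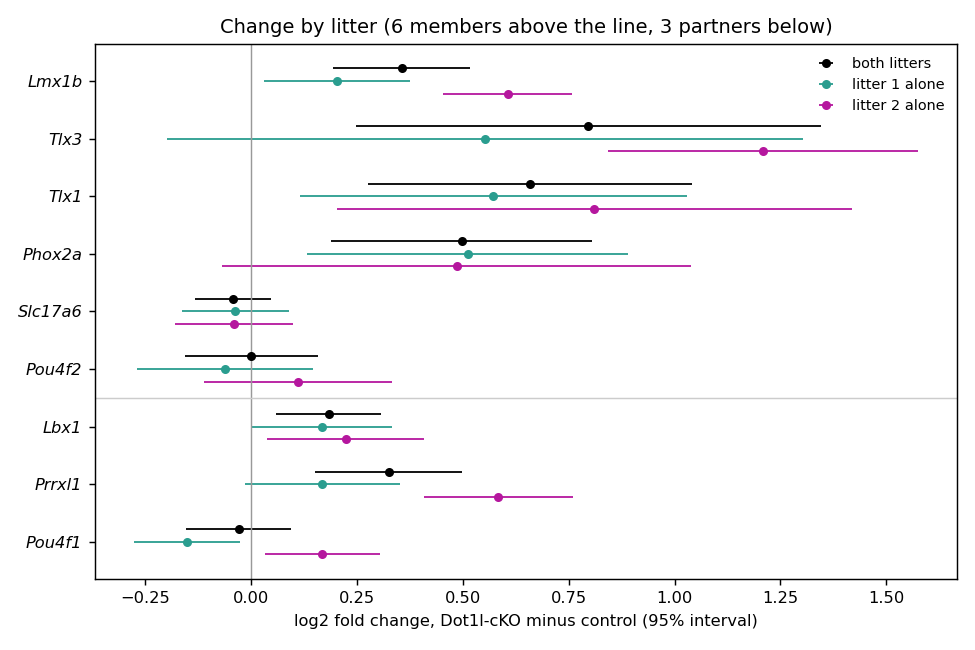
Log2 fold change, Dot1l-cKO minus control, with its 95% interval (x axis) for the 6 members and 3 partner genes (y axis), over both litters (black), litter 1 alone (green) and litter 2 alone (purple). Lmx1b moved from 0.20 in litter 1 to 0.61 in litter 2, whereas Slc17a6 stood at -0.04 in both.

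The members were next compared between litters among the 5 controls alone. Lmx1b was lower in litter 2 controls by a log2 fold change of -1.11 (adjusted p = 6.02e-06), Tlx3 by -0.86 (adjusted p = 0.00128) and Slc17a6 by -0.40 (adjusted p = 0.0012), all by edgeR's quasi-likelihood test. These were 3 of 6 members, against 24.5% of all genes. Tlx1 (-0.11), Phox2a (-0.05) and Pou4f2 (-0.07) did not pass. The summed level of 6 neural progenitor genes was 2574 to 2643 CPM in litter 1 controls and 3131 to 3289 CPM in litter 2 controls. That of 5 dp5 progenitor genes was 104 to 124 CPM in litter 1 controls and 226 to 232 CPM in litter 2 controls. All 9 listed DRG genes were called lower in litter 2 controls, with a median log2 fold change of -1.50. The parts of progenitor and DRG content in the litter difference were not tested.

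To ask whether the other members kept pace with Lmx1b, the log2 ratio of Lmx1b to each was compared between groups by an exact permutation test within litters, with 120 arrangements, two-sided. The ratio of Lmx1b to Slc17a6 was higher in Dot1l-cKO by 0.40 (exact permutation p = 0.0167, the smallest possible, adjusted p = 0.05 over 6 ratios). The ratio to Pou4f2 was higher by 0.36 (exact permutation p = 0.0333, adjusted p = 0.0667). To 10 pan-neuronal genes it was higher by 0.31 (exact permutation p = 0.0167, adjusted p = 0.05). By contrast the ratio to Tlx3 differed by -0.34 (exact permutation p = 0.45, adjusted p = 0.5), that to Tlx1 by -0.32 (0.15, adjusted 0.225) and that to Phox2a by -0.13 (0.5, adjusted 0.5). By litter, the difference for Phox2a was -0.31 in litter 1 and 0.14 in litter 2, whereas for each of the other 5 ratios it had 1 sign in both litters. None of the 6 adjusted values was below 0.05, and 3 of the unadjusted values were. Even at the smallest possible p, a ratio could pass this adjustment only if several of the others had p near that value. The lack of a pass is therefore no sign that the ratios were unchanged. Leaving out 1 embryo moved these differences to between 0.29 and 0.50 for Slc17a6, 0.20 and 0.51 for Pou4f2, 0.16 and 0.43 for the pan-neuronal genes, -0.63 and -0.15 for Tlx3, -0.57 and -0.15 for Tlx1, and -0.33 and 0.04 for Phox2a. The lowest values for Slc17a6, Pou4f2 and the pan-neuronal genes were those without control replicate 4, and those without control replicate 5 were the next lowest. Each group's mean was taken over both litters, so leaving out 1 embryo also changed the weight of each litter. Among controls the ratio in litter 2 minus that in litter 1 was -0.71 for Slc17a6, -1.04 for Pou4f2, -1.06 for Phox2a and -0.96 for the pan-neuronal genes. These ranges therefore mix litter with the embryo left out.

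The members' median log2 fold change was 0.43 over both litters, 0.36 in litter 1 and 0.55 in litter 2, beside medians of all genes of -0.01, 0.01 and -0.01. The spread within the 6 genes was wide, since Slc17a6 and Pou4f2 lay near 0 in all 3 comparisons. The members with higher values were also those with GC-rich exons, at 67.3% for Tlx3, 61.9% for Phox2a, 60.2% for Tlx1 and 59.0% for Lmx1b, against 50.5% for Pou4f2 and 45.2% for Slc17a6. The median of tested genes was 49.8%. Among all genes the median log2 fold change over both litters was -0.06 in the fifth with lowest GC content and 0.10 in the fifth with highest, and in litter 2 alone it was -0.12 and 0.20. After a correction for GC content the log2 fold changes were 0.22 for Lmx1b, 0.32 for Tlx3, 0.49 for Tlx1, 0.27 for Phox2a, -0.01 for Slc17a6 and 0.01 for Pou4f2. The first 4 of these stayed positive and 0 of 6 passed (edgeR quasi-likelihood test, 2 with an unadjusted p below 0.05, against 3908 of 19755 genes).

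**Figure D3:**
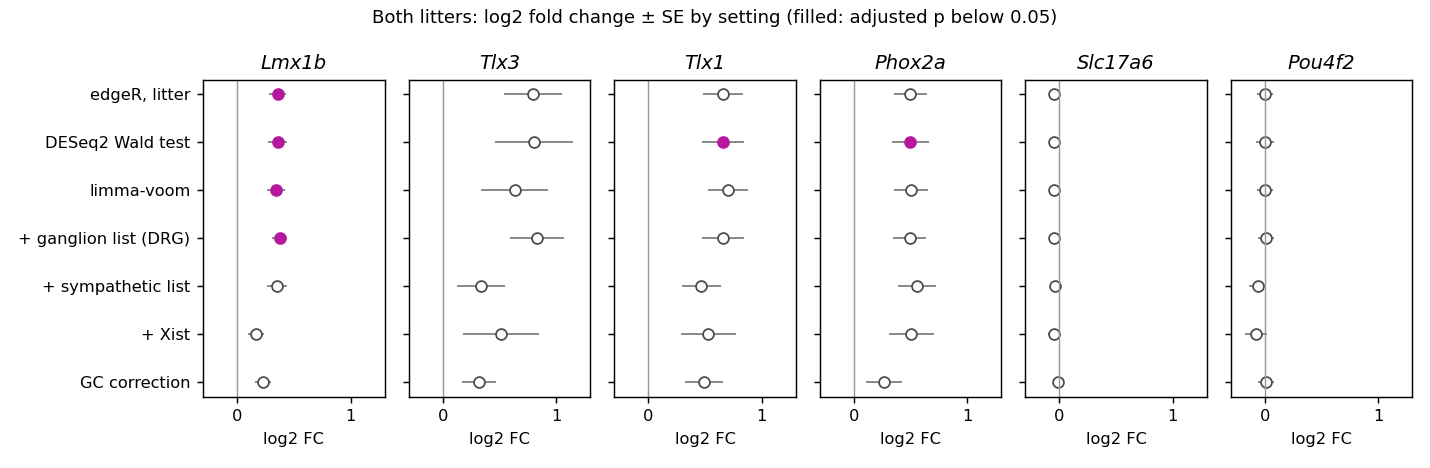
Log2 fold change ± SE over both litters (x axis) for each member under 7 settings (y axis), with filled points where the adjusted p was below 0.05. Lmx1b, Tlx3, Tlx1 and Phox2a were positive under every setting drawn, and Tlx3 was 0.32 after GC correction and 0.34 with the sympathetic list as covariate.

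Other genes of the same cells were taken from a list of 5. Prrxl1, a homeodomain factor of dorsal horn excitatory and DRG neurons that acts with Tlx3 and Lmx1b, rose by 0.32 (adjusted p = 0.0476, edgeR quasi-likelihood test). It was at 67.8, 65.9 and 61.7 CPM in litter 1 controls, and at 81.6, 71.3 and 66.1 CPM in litter 1 Dot1l-cKO. Litter 2 controls were at 30.3 and 34.1 CPM and Dot1l-cKO embryos at 47.4 and 48.6 CPM. As for Lmx1b, the groups overlapped in litter 1 and not in litter 2, and litter 2 controls were lower (-1.01 on the log2 scale, adjusted p = 1.10e-05, edgeR quasi-likelihood test). Prrxl1 was the only 1 of 5 partners that passed. Its value was 0.32 after GC correction too (adjusted p = 0.0545), 0.13 with Xist as covariate (adjusted p = 0.497) and 0.29 with the sympathetic list (adjusted p = 0.109), limma-voom gave adjusted p = 0.064, and the call was lost in 8 of 10 fits that left out 1 embryo, all but those without Dot1l-cKO replicate 2 or 3 (edgeR quasi-likelihood test).

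Lbx1, which all of these dorsal horn classes express, was at 44.4, 43.8 and 42.3 CPM in controls and 48.8, 52.6 and 44.6 CPM in Dot1l-cKO of litter 1. In litter 2 it was at 37.2 and 41.6 CPM in controls and at 43.2 and 48.4 CPM in Dot1l-cKO. Dot1l-cKO embryos lay above their littermate controls in both litters, with a log2 fold change of 0.18 that did not pass (adjusted p = 0.0893, edgeR quasi-likelihood test). Pou4f1, the relative of Pou4f2 shared with sensory neurons, was at -0.15 in litter 1 and 0.17 in litter 2, neither past the threshold. Bhlhe22 was at 0.39 in litter 1 and -0.12 in litter 2 (0.18 over both), and Gria2 at 0.00407 and -0.22 (-0.09 over both), none past the threshold.

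Of the peptide genes that mark excitatory dorsal horn neurons later, 5 of 6 were tested, and Tac1, which encodes substance P and is also a DRG gene, was the only 1 that passed. It was at 16.6, 12.9 and 11.1 CPM in litter 1 controls and at 31.7, 20.1 and 24.04 CPM in litter 1 Dot1l-cKO. Levels in litter 2 were 6.35 and 6.05 CPM in controls and 7.64 and 10.0 CPM in Dot1l-cKO. The groups did not overlap in either litter, and Tac1 rose by 0.76 ± 0.14 (SE, adjusted p = 0.0213, edgeR quasi-likelihood test). Tac1 was at 0.79 after GC correction (adjusted p = 0.0153) and 0.91 with Xist as covariate (adjusted p = 0.0628), and missed the threshold without Dot1l-cKO replicate 1 or 5 or control replicate 3 (0.63 to 0.85 over the 10 fits, edgeR quasi-likelihood test). All 5 tested peptide genes had positive values, with a median of 0.16. In litter 2 alone Sst, which encodes somatostatin, rose by 0.55 (adjusted p = 0.0313, edgeR quasi-likelihood test).

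Of the inhibitory dI4 and dILA genes, 1 of 10 passed, 6 of 10 had positive values and the median was 0.12. Their summed level was 469 to 530 CPM in controls and 541 to 596 CPM in Dot1l-cKO of litter 1, and 564 to 579 CPM and 598 to 664 CPM in litter 2, without overlap in either litter. The summed level of the 6 members was 284 to 307 CPM in controls and 300 to 328 CPM in Dot1l-cKO of litter 1, with overlap. In litter 2 it was 186 to 201 CPM and 224 to 239 CPM, without overlap. How often sums of other genes separate in this way was not counted. Gbx1, a homeodomain factor of late inhibitory neurons, rose by 0.50 (adjusted p = 0.00463, edgeR quasi-likelihood test). It was at 31.2 to 34.1 CPM in controls and 39.4 to 49.8 CPM in Dot1l-cKO of litter 1, and at 19.7 to 20.1 CPM and 27.1 to 31.1 CPM in litter 2. Gbx1 kept its call in all 10 fits that left out 1 embryo, and lost it after GC correction (0.32, adjusted p = 0.106) and with Xist as covariate (0.45, adjusted p = 0.0665, edgeR quasi-likelihood test). In litter 2 alone Pax2 rose as well (0.51, adjusted p = 0.0117, by the same test). Of 5 genes of dp5, the progenitor domain of these neurons, 0 passed over both litters (edgeR quasi-likelihood test, 3 with an unadjusted p below 0.05 against 4290 of 19773 genes, 1 called by DESeq2), and Pax3 was at -0.35 (adjusted p = 0.0573). Its value was -0.36 in litter 1 alone (adjusted p = 0.262) and -0.31 in litter 2 alone, where it passed (adjusted p = 0.0401, by the same test). None of 6 genes of the dI1 to dI3 classes passed over both litters (3 with an unadjusted p below 0.05, 2 called by DESeq2). Only 2 of these 6 had positive values over both litters, with a median of -0.19 and a range from -0.39 to 0.31. The gene at 0.31, Foxd3, which also marks neural crest, rose in litter 2 alone (0.56, adjusted p = 0.0469, edgeR quasi-likelihood test).

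The gene whose level followed Lmx1b most closely was sought across the 10 embryos after each litter's mean was removed, among 13589 genes. Dmrta1, Fndc10, Mrpl40, Aqp4 and Paqr7 led, with Pearson r from 0.958 to 0.971. Prrxl1 was the 10th (r = 0.945) and Gbx1 the 57th (r = 0.895). Of the members, Tlx1 ranked 558 (r = 0.760), Phox2a 1385 (r = 0.646), Tlx3 1960 (r = 0.574), Pou4f2 5109 (r = 0.173) and Slc17a6 7389 (r = -0.142). These correlations describe 10 embryos that share genotype and library effects. The ranking kept the genotype difference of the same embryos, so a call among the leading genes is no separate support. Of the 5 leading genes, Aqp4 (0.73, adjusted p = 0.0451) and Paqr7 (0.31, adjusted p = 0.0480) passed over both litters (edgeR quasi-likelihood test), and lost the call in 7 and 8 of the 10 fits that left out 1 embryo. Both also lost it with Xist as covariate (0.35, adjusted p = 0.387, and 0.18, adjusted p = 0.411), with GC correction (0.75, adjusted p = 0.0506, and 0.26, adjusted p = 0.0798) by edgeR, and with limma-voom (0.64, adjusted p = 0.0578, and 0.29, adjusted p = 0.0632).

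**Figure D4:**
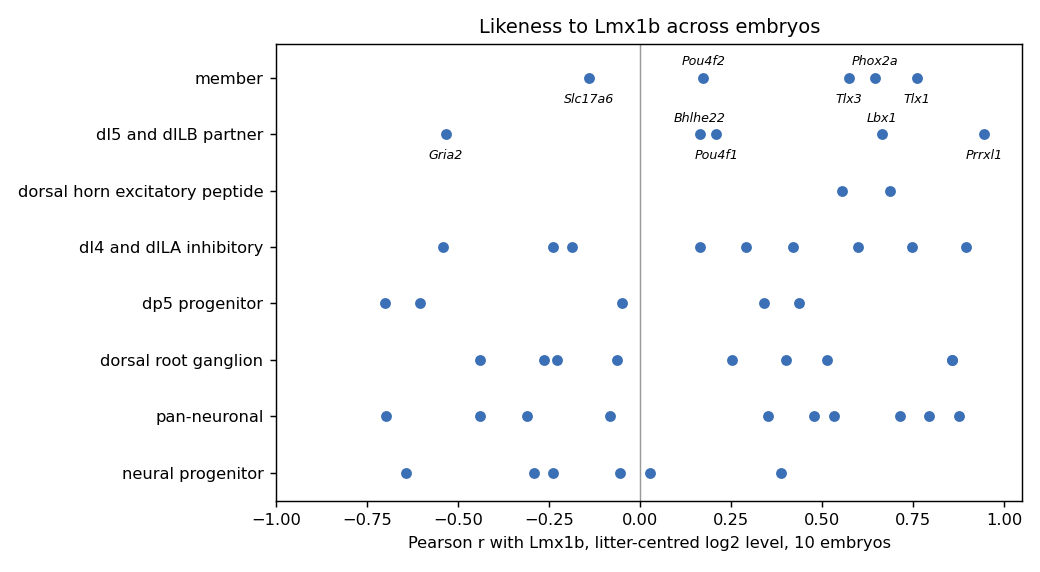
Pearson r with Lmx1b of litter-centred log2 CPM over 10 embryos (x axis) for listed genes with a mean log2 CPM of at least 1 (1 point per gene), by list (y axis). Prrxl1 lies nearest to Lmx1b at 0.945, Tlx1, Phox2a and Tlx3 lie between 0.574 and 0.760, and Slc17a6 lies at -0.142.

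Other tissues in the samples express some of the same genes, since Tlx3, Tlx1, Prrxl1, Pou4f1 and Slc17a6 are also sensory neuron genes and Phox2a and Tlx3 occur in sympathetic ganglia. The summed level of 9 DRG genes was 888 to 1029 CPM in controls and 688 to 817 CPM in Dot1l-cKO of litter 1. In litter 2 it was 404 to 449 CPM in controls and 482 to 530 CPM in Dot1l-cKO, so the sum was lower in Dot1l-cKO in the first litter and higher in the second. Log2 fold changes were positive for 2 of the 9 genes in litter 1 and for 7 of 9 in litter 2. None of the 9 was at 0 in any group. Runx1, Avil, P2rx3 and Pirt, genes of sensory neurons, rose in litter 2 alone (edgeR quasi-likelihood test). Runx3 fell over both litters, by 0.71 on the log2 scale (adjusted p = 0.0483), and in litter 1 alone, and the call over both litters was lost in 8 of 10 fits that left out 1 embryo, all but those without Dot1l-cKO replicate 4 or control replicate 5. With the mean of the DRG list as covariate, Lmx1b was at 0.37 (adjusted p = 0.013) and Tlx3 at 0.83 (adjusted p = 0.0629) by the same test.

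Sympathetic ganglion genes were low. Dbh, the enzyme that makes noradrenaline, was at 0.0878, 0.184 and 0.360 CPM in controls and 0.117, 1.04 and 0.0713 CPM in Dot1l-cKO of litter 1. In litter 2 it was at 0.119 and 2.30 CPM in controls and at 2.35 and 3.43 CPM in Dot1l-cKO. The embryo with the highest Tlx3 (45.7 CPM) was the litter 1 embryo with the highest Dbh, and the litter 2 control with the higher Tlx3 was the one with the higher Dbh. Litter 1 controls did not match in this way, since Dbh was 0.360 CPM at 18.4 CPM of Tlx3 and 0.184 CPM at 20.2 CPM of Tlx3. The source of Tlx3 in these embryos was not tested. The summed level of the 5 listed genes was 42.7 to 43.6 CPM in controls and 26.1 to 34.9 CPM in Dot1l-cKO of litter 1, and 10.4 to 13.9 CPM and 16.9 to 22.4 CPM in litter 2, most of it Th, which DRG neurons also express. None of the 5 passed over both litters by edgeR or DESeq2 (0 and 1 with an unadjusted p below 0.05), and none was at 0 throughout a group. Th was at -0.49 in litter 1 alone (adjusted p = 0.0900) and rose in litter 2 alone (0.56, adjusted p = 0.0307, edgeR quasi-likelihood test). With the mean of this list as covariate, Lmx1b was at 0.35 (adjusted p = 0.0537), Tlx3 at 0.34 (adjusted p = 0.43) and Phox2a at 0.56 (adjusted p = 0.0988) by edgeR's quasi-likelihood test.

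Markers of further cell types gave few calls over both litters by the same test. Roof plate (5 genes), floor plate (4 genes), mesenchyme (5 genes) and neural progenitor (6 genes) lists had 0 called, with 2, 1, 0 and 0 genes at an unadjusted p below 0.05 and 1, 1, 0 and 0 called by DESeq2. Of all 19773 genes tested, 4290 had an unadjusted p below 0.05 by edgeR. Of 10 pan-neuronal genes Nefl, a neurofilament gene, fell by 0.22 on the log2 scale (adjusted p = 0.0284, lost in 7 of 10 fits that left out 1 embryo). In litter 2 alone Col1a1, Rbfox3 and Hes5 were higher and Msx2 was lower. The summed level of 5 mesenchyme genes was 1014 to 1396 CPM in controls and 682 to 1124 CPM in Dot1l-cKO of litter 1, and 711 to 834 CPM and 867 to 989 CPM in litter 2. Their part in the members' values was not tested.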

How the data were processed

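Counts per gene were deposited by the authors for 10 embryos, as raw read counts made with the snakePipes RNA-seq workflow (TrimGalore, STAR, featureCounts) on mm10 (GRCm38) with a GENCODE annotation. Strand setting is not given in the sources used here. Of 54146 gene identifiers, 54079 matched the GENCODE annotation used for names. The members and gene lists were chosen with earlier results of these data known.

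Counts were filtered (filterByExpr), scaled by TMM and tested with edgeR 4.0.16 (quasi-likelihood F test, litter as covariate, R 4.3.3), with Benjamini-Hochberg adjustment over all tested genes and a threshold of 0.05. The study's model has litter as a term too, but its test was DESeq2. Over both litters DESeq2 called 3 of 6 members here (Lmx1b, Tlx1 and Phox2a), so the count of 1 holds for edgeR. The code was tested on simulated data. Separate fits covered each litter, the interaction and the controls. Ratios used a pseudocount of 0.5 and were tested with exact permutations in scipy 1.17.1. TPM used union exon lengths. Alternatives were DESeq2 1.42.0, limma-voom (limma 3.58.1), other scalings and filters, no litter term, each litter alone, GC correction, and the Xist level or DRG list as covariate. The sympathetic list as covariate was added after seeing the data. Embryos of the same group were compared in 20 pairs, and chi-square per gene was 8.59 to 76.9, so no library was a copy. Libraries are separate embryos.

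Named genes were the 6 members, Lbx1, Prrxl1, Pou4f1, other listed genes called over both litters or in 1 litter, and the 5 genes most like Lmx1b. Some genes that this rule names are not reported here. Bhlhe22, Gria2, Dbh, Inppl1, Xist and Dot1l were named besides, after their values were seen. Depth was 40949585 to 68928443 counts, and counts of scarce genes limit precision.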

Additional observations from a re-analysis of the deposited data

How the results depend on the processing

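Over both litters, Lmx1b stayed positive under all 15 alternatives and all 10 fits without 1 embryo. Its log2 fold change lost the call without the litter term (0.30, adjusted p = 0.733, edgeR), in litter 1 alone (0.20, 0.270), with Xist as covariate (0.17, 0.318), with GC correction (0.22, 0.103) and with the sympathetic list as covariate (0.35, 0.0537), and ranged from 0.31 to 0.41 when 1 embryo was left out, with the call lost in 7 of 10. Pou4f2 turned negative in litter 1 alone (-0.0616), with Xist (-0.0783) and with the sympathetic list (-0.0636), and ranged from -0.0503 to 0.0508 without 1 embryo. Members called over both litters, 1 of 6 by the reported test, were 3 with DESeq2, 4 with no filter, 2 in litter 2 alone, and 0 without litter, in litter 1 alone, with Xist, with GC correction or with the sympathetic list, and ranged from 0 to 3 without 1 embryo. Genes called, 591 by the reported test, were 1492 with DESeq2, 2201 with no filter, 0 without litter (1867 at an unadjusted p below 0.05), 12 in litter 1 alone, 964 in litter 2 alone, 49 with Xist, 1027 with the DRG list, 362 with GC correction and 387 with the sympathetic list, and ranged from 53 to 1377 without 1 embryo. With no filter, the members called were 1 in litter 1 alone and 2 for the interaction. The ratio of Lmx1b to Phox2a ranged from -0.33 to 0.0378 without 1 embryo, where the litters no longer had equal weight in both groups. The cause of these changes was not tested. No paired analysis was possible because the labels number no pairs across groups, and litter was the block. Tlx1 and Phox2a rest on few counts per embryo (61 to 183 and 70 to 218).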
